A study of Mus musculus with 6 samples.

Results

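The cohesin complex and the factors that load it onto DNA and release it were followed by RNA-seq in murine embryonic stem cells (ESCs) after shRNA knockdown of SMC1, CAPH2 or SMC2. The gene set holds 10 of the 21071 genes in the RefSeq rows. It covers the ring subunits Smc1a, Smc3 and Rad21 and the alternative subunits Stag1 and Stag2. It also covers the loaders Nipbl and Mau2, and the release and regulatory factors Wapl, Pds5a and Pds5b. The genes were chosen by name, and for each gene the RefSeq row with the most counts over the 6 libraries was used. A gene was tested where 2 or more libraries held 10 or more counts each, and all 10 members were among the 14599 genes tested.

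The cells were V6.5 ESCs, a C57BL/6-129 line kept on irradiated mouse embryonic fibroblasts and passaged once on gelatin without them before RNA was taken. Every library came from cells infected with lentivirus in polybrene and selected with puromycin, at 0.5 and then 1 µg/ml for 48 h each by the labels. The control library carried a hairpin against GFP, and the SMC1 library a hairpin against SMC1, with 1 library each. CAPH2 and SMC2 had 2 libraries each, R1 and R2, and each of these carried a different hairpin, so R1 and R2 are not repeats of 1 treatment. CAPH2 belongs to condensin II only, and SMC2 to both condensin complexes. The labels name no separate cultures, so the p-values below measure only the spread between hairpins of a target, and the single GFP and SMC1 libraries are assumed to vary like those pairs.

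Cohesin is a ring that entraps DNA. SMC1A and SMC3 form its hinged arms, RAD21 closes it, and STAG1 or STAG2 binds RAD21, so that a ring holds either STAG protein. NIPBL and MAU2 load the ring, WAPL opens it, and PDS5A and PDS5B bind it and take part in both its release and its stabilization. In ESCs, cohesin and NIPBL are known for their occupancy of active enhancers and promoters, where they support the expression of pluripotency genes. The comparisons below ask whether the transcripts of the other cohesin genes change when a subunit of cohesin or of condensin is lowered.

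Promoter sequences from RefSeq (GRCm38.p6) were available for 7 of the 10 genes. Those of Rad21, Stag2 and Nipbl are not shown. The 250 bases before the annotated start are printed for the knockdown target Smc1a, for Stag1 and Pds5b, whose transcripts were highest in the SMC1 library, and for Pds5a, the paralog of Pds5b. Capitals mark matches on either strand to CCAAT (the CCAAT box), to GGGCGG (the GC box) and to TTTGGCGC (a form of the E2F motif). The sequences run 5′ to 3′ on the strand of the gene: Smc1a at chrX:152016178-152016427 (plus), Stag1 at chr9:100643198-100643447 (plus), Pds5a at chr5:65698237-65698486 (minus) and Pds5b at chr5:150673577-150673826 (plus).
Smc1a: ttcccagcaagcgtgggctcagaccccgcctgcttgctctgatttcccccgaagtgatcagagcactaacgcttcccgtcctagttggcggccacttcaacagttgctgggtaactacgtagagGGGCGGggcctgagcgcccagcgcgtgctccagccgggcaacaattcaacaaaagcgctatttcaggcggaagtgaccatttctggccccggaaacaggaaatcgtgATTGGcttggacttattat
Stag1: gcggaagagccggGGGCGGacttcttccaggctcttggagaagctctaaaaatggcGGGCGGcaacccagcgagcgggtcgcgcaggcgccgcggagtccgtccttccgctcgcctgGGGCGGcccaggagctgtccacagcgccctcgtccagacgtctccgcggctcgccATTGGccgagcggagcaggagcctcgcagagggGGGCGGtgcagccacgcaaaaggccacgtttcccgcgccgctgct
Pds5a: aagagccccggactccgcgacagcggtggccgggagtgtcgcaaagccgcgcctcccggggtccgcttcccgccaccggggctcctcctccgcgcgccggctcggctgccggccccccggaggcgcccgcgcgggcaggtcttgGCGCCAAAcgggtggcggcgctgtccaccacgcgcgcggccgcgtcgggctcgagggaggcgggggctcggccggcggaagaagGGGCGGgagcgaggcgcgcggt
Pds5b: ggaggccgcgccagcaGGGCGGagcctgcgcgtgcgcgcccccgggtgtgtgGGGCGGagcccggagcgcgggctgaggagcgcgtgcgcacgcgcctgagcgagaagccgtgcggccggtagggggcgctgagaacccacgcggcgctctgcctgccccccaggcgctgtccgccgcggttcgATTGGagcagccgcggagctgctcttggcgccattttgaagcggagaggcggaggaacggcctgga
GGGCGG was present in 7 of the 8 windows of the 7 genes (Mau2 has 2 starts) and in 32.7% of all 32851 promoter windows of the same length. CCAAT was present in 4 of the 8 windows and in 33.8% of all windows. TTTGGCGC was present in 1 of the 8 windows, that of Pds5a, and in 0.417% of all windows. TTTCGCGC, the other E2F form searched, was in none of the 8 and in 0.256% of all windows. A match says only that these letters stand in the window.

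The RPKM values rest on 18823245 to 23324538 reads per library. The targets were lowered in their own libraries: Ncaph2, which encodes CAPH2 and lies outside the rule for named genes, had an RPKM of 80.2 with GFP against 16.9 and 27.9 with the CAPH2 hairpins, and Smc2 had 26.6 against 18.8 and 19.1 with the SMC2 hairpins. The summed RPKM of 8 ESC markers was 3273 with GFP, 1785 with SMC1 and 2712 to 2920 in the 4 condensin libraries. In SMC1 against GFP, 7 of these 8 fell, among them Esrrb, Klf4, Zfp42 and Sox2 with log2 changes of -3.29, -3.09, -1.99 and -1.35, in a comparison where 25.1% of all tested genes were higher and 22.5% lower. The summed RPKM of 10 fibroblast markers, listed to look for feeder cells, was 47.8 with GFP, 96.3 with SMC1 and 51.7 to 75.1 in the condensin libraries. Of the 8 that could be tested, 6 rose with SMC1, including Col1a2, Prrx1, Col3a1 and Col1a1. The highest of the 10 with SMC1 were Col1a1 (39.4) and Col1a2 (33.2). Whether this RNA came from feeder cells or from the ESCs was not tested. The fibroblast markers Dcn (RPKM 0.026 to 0.56) and Lum (at most 0.125) were near 0 in all 6 libraries. Of 8 primitive endoderm markers, 4 rose with SMC1 (Dab2, Sparc and Foxa2 among them) and 1, Lama1, fell. Foxa2 was low, with an RPKM of 0.175 with GFP and 0.734 with SMC1. ERCC spike-in RNAs, added by cell number, place the log2 changes against GFP higher by 0.86 for SMC1, 0.63 for CAPH2 R1, 0.64 for SMC2 R1 and 0.57 for SMC2 R2, and lower for CAPH2 R2 (-0.047). Each of these differences between libraries accompanies the results below, and their part in them was not tested.

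In the GFP library the levels per length spanned from an RPKM of 9.14 for Nipbl to 132 for Rad21. Rad21 was followed by Smc3 (41.0), Wapl (39.9), Pds5a (36.4), Smc1a (36.1), Mau2 (24.9), Stag1 (14.0), Stag2 (13.1), Pds5b (10.9) and Nipbl. The 95% Poisson intervals of the counts overlapped between Smc3 and Wapl, between Pds5a and Smc1a, and between Stag1 and Stag2. The other neighbours in this order did not overlap. These intervals cover counting error only. The counts behind these levels ran from 1098, for Smc1a with SMC1, to 11868, for Rad21 with SMC2 R1. Across the 6 libraries the highest level was 3.26 times the lowest for Smc1a, and between 1.90 and 2.27 times for Stag2, Stag1, Nipbl and Pds5b. It was only 1.13 times for Rad21 and Mau2 and 1.18 times for Smc3.

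**Figure D1:**
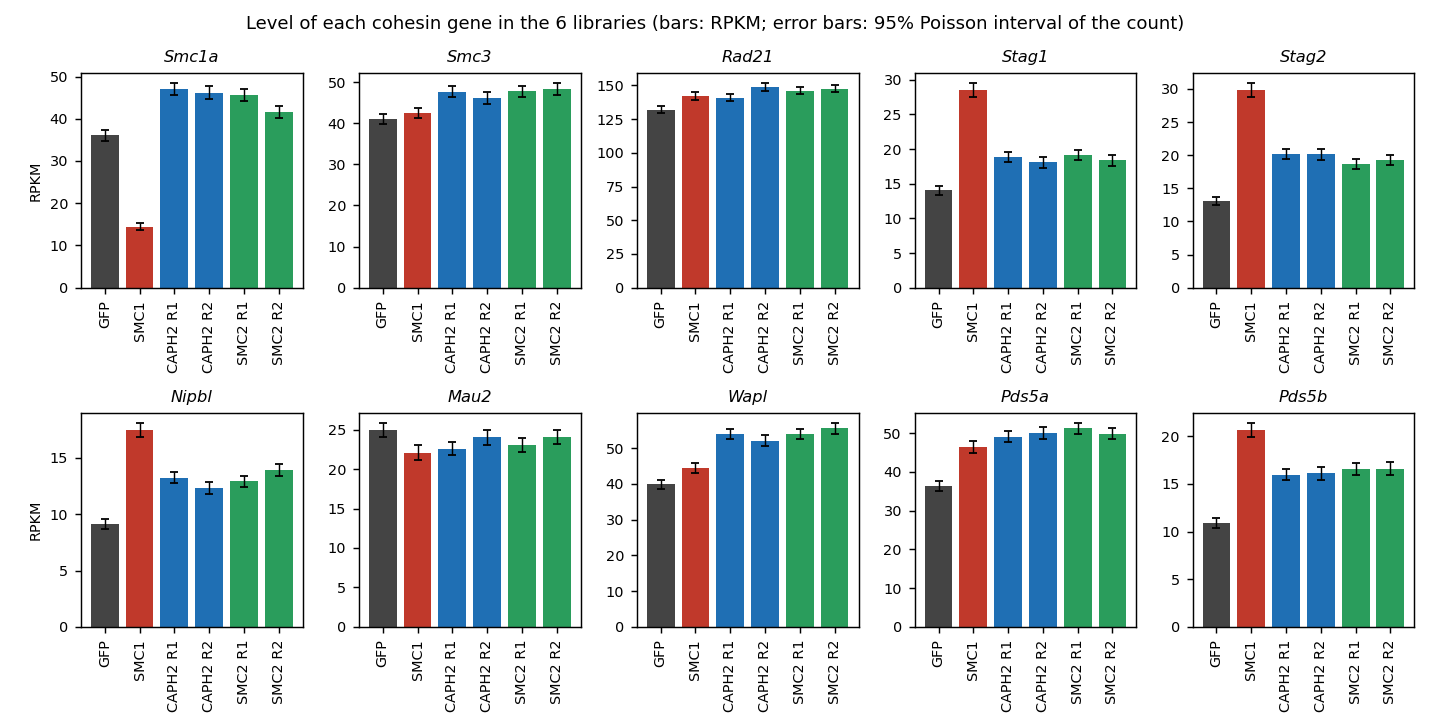
Level of each cohesin gene in the 6 libraries. Bars give the RPKM and error bars the 95% Poisson interval of the count, with GFP in grey, SMC1 in red, CAPH2 R1 and R2 in blue and SMC2 R1 and R2 in green; Smc1a drops to an RPKM of 14.4 in the SMC1 library, while Stag1, Stag2, Nipbl and Pds5b are highest there, and GFP is lowest for 8 of the 10 genes (27.7% of all tested genes).

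The ring genes were led by the knockdown target. Smc1a (NM_019710, chrX:148450971-148496515 in mm9, plus strand) had an RPKM of 36.1 with GFP, 14.4 with SMC1, 46.9 and 46.2 with CAPH2, and 45.6 and 41.7 with SMC2. The SMC1 library lay far below all others and GFP below the 4 condensin libraries. Smc1a in the SMC1 library was 39.9% of GFP (95% binomial interval 37.2 to 42.8%), and it was 30.6 to 34.5% of the condensin libraries. The log2 change was -1.33 (SE 0.10, adjusted p = 2.97e-05 by edgeR's quasi-likelihood test with Benjamini-Hochberg adjustment over all genes). Whether fewer cells expressed a gene or each cell held less of its RNA cannot be told apart in bulk RNA, here and for every gene below. With CAPH2, Smc1a was 0.37 higher than GFP on the log2 scale (SE 0.09, edgeR adjusted p = 0.0395). With SMC2 the log2 difference was 0.28 and did not pass (SE 0.09, edgeR adjusted p = 0.0877).

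Smc3, the partner of SMC1A in the ring, and Rad21, the closing subunit, stayed in a narrow range. Smc3 (NM_007790, chr19:53674886-53720321, plus strand) had an RPKM of 41.0 with GFP, 42.5 with SMC1, 47.7 and 46.1 with CAPH2, and 47.7 and 48.3 with SMC2. Rad21 (NM_009009, chr15:51794151-51823306, minus strand) had 132 with GFP, 142 with SMC1, 141 and 148 with CAPH2, and 146 and 148 with SMC2. GFP was lowest for both genes, by a small margin. Neither gene passed the test in any comparison: the log2 changes of Smc3 were 0.05, 0.19 and 0.23 against GFP for SMC1, CAPH2 and SMC2 (edgeR adjusted p = 0.661, 0.141 and 0.102), and those of Rad21 were 0.11, 0.13 and 0.16 (edgeR adjusted p = 0.327, 0.272 and 0.219).

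Stag1 and Stag2, whose products are alternative subunits of the same ring, rose together. Stag1 (NM_009282, chr9:100544042-100858963, plus strand) had an RPKM of 14.0 with GFP, 28.5 with SMC1, 18.9 and 18.1 with CAPH2, and 19.1 and 18.3 with SMC2. Stag2 (NM_021465, chrX:39503878-39630352, plus strand) had 13.1 with GFP, 29.8 with SMC1, 20.1 and 20.1 with CAPH2, and 18.6 and 19.2 with SMC2. For both genes GFP was lowest, the 4 condensin libraries formed a narrow middle group, and SMC1 stood above it without overlap. Against GFP, SMC1 gave a 2.03-fold rise of Stag1 (log2 change 1.02, SE 0.10, edgeR adjusted p = 7.80e-05) and a 2.27-fold rise of Stag2 (1.18, SE 0.10, edgeR adjusted p = 3.35e-05). With CAPH2, Stag1 rose by 0.40 and Stag2 by 0.62 on the log2 scale (edgeR adjusted p = 0.0331 and 0.0218). With SMC2 the log2 rises were 0.42 and 0.53 (edgeR adjusted p = 0.0293 and 0.0188).

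The 2 loader genes, whose products act as a complex, differed from each other. Nipbl (NM_027707, chr15:8241225-8394463, minus strand) had an RPKM of 9.14 with GFP, 17.5 with SMC1, 13.2 and 12.3 with CAPH2, and 12.9 and 13.9 with SMC2. Mau2 (NM_001167939, chr8:72540022-72566633, minus strand) had 24.9 with GFP, 22.1 with SMC1, 22.6 and 24.0 with CAPH2, and 23.0 and 24.1 with SMC2. Nipbl showed the order of the STAG genes, with GFP lowest and SMC1 highest, whereas Mau2 was highest with GFP and lowest with SMC1. Nipbl rose 1.91-fold with SMC1 (log2 change 0.94, SE 0.11, edgeR adjusted p = 0.000170), and by 0.48 and 0.55 on the log2 scale with CAPH2 and SMC2 (edgeR adjusted p = 0.0263 and 0.0207). Mau2 did not pass the test, with log2 changes of -0.17, -0.10 and -0.08 for SMC1, CAPH2 and SMC2 (edgeR adjusted p = 0.175, 0.480 and 0.574).

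Among the release and regulatory factors, Wapl rose with the condensin hairpins. Wapl (NM_001004436, chr14:35487114-35559403, plus strand) had an RPKM of 39.9 with GFP, 44.4 with SMC1, 54.1 and 52.1 with CAPH2, and 53.9 and 55.6 with SMC2. The SMC1 library lay between GFP and the condensin libraries. The log2 rise was 0.41 with CAPH2 and 0.46 with SMC2 (edgeR adjusted p = 0.0263 and 0.0210), and the log2 change of 0.16 with SMC1 did not pass (edgeR adjusted p = 0.181).

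Pds5a and Pds5b encode related proteins that bind RAD21. Pds5a (NM_001081321, chr5:66006499-66089095, minus strand) had an RPKM of 36.4 with GFP, 46.4 with SMC1, 49.1 and 50.0 with CAPH2, and 51.2 and 49.9 with SMC2. Pds5b (NM_175310, chr5:151476402-151613245, plus strand) had 10.9 with GFP, 20.6 with SMC1, 15.9 and 16.1 with CAPH2, and 16.6 and 16.6 with SMC2. Pds5a resembled Wapl, with SMC1 below the condensin libraries, and Pds5b resembled Nipbl, with SMC1 above them. With SMC1, Pds5a rose 1.27-fold (log2 change 0.35, SE 0.09, edgeR adjusted p = 0.0106) and Pds5b 1.90-fold (0.92, SE 0.09, edgeR adjusted p = 0.000106). With CAPH2 the log2 rises were 0.44 and 0.56 (edgeR adjusted p = 0.0244 and 0.0218), and with SMC2 they were 0.47 and 0.61 (edgeR adjusted p = 0.0198 and 0.0183).

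Over the gene set, SMC1 knockdown gave 5 members higher and 1 lower than GFP, where 25.1% of all tested genes were higher and 22.5% lower (47.6% in all). The higher members were Stag1, Stag2, Nipbl, Pds5a and Pds5b, and the lower member was the target. With CAPH2, 7 members were higher than GFP and 0 lower, where 4.22% of all genes were higher and 3.10% lower (7.32% in all). With SMC2, 6 members were higher and 0 lower, against 3.68% and 2.86% of all genes (6.54% in all). The median log2 change of the members was 0.25 for SMC1, 0.40 for CAPH2 and 0.44 for SMC2, beside 0.02, 0.00 and -0.01 for all tested genes. The 3 comparisons share the 1 GFP library, so they are not independent of each other. GFP was the lowest of the 6 libraries for 8 members, as it was for 27.7% of all genes, and the highest for Mau2, as for 29.0% of all genes.

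Some calls with the condensin hairpins were lost when 1 SMC2 library was left out. Leaving out a CAPH2 library changed the CAPH2 values little. The 7 members called in CAPH2 against GFP then had log2 changes of 0.36 to 0.62 without CAPH2 R1. Their values were 0.38 to 0.62 without CAPH2 R2. Without the SMC2 R2 library, 0 members passed in SMC2 against GFP, with log2 values of 0.43 to 0.61 and edgeR adjusted p from 0.0775 to 0.0976 for the 6 members called before, and without SMC2 R1 only Nipbl and Pds5b passed. In CAPH2 against GFP, Smc1a did not pass without SMC2 R1 (edgeR adjusted p = 0.0508), and Smc1a and Stag1 did not pass without SMC2 R2 (0.0537 and 0.0525), since the spread in the fit comes from the hairpin pairs. Under ERCC scaling only Stag1 and Stag2 passed for SMC1 against GFP, no member passed in the other comparisons, and Smc1a was 72.7% of GFP in the SMC1 library. The log2 values for SMC1 against GFP were then higher: 2.05 for Stag2, 1.89 for Stag1, 1.80 for Nipbl, 1.79 for Pds5b and -0.46 for Smc1a. Their standard errors were 0.65 to 0.68, beside 0.09 to 0.11 without this scaling.

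**Figure D2:**
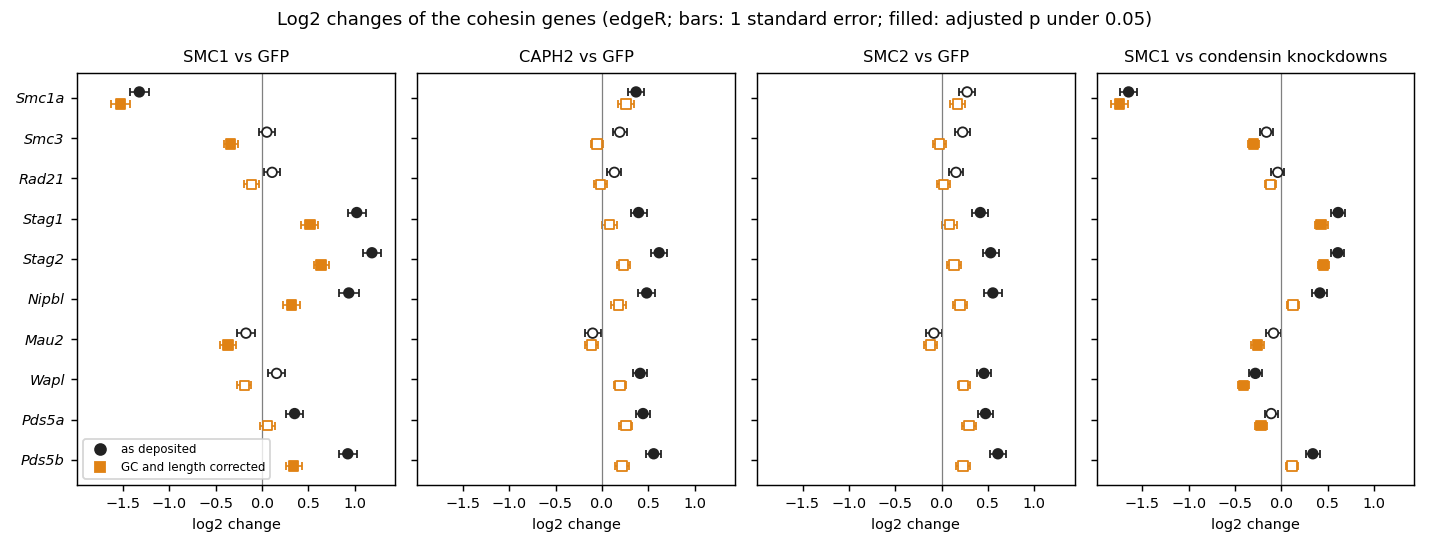
Log2 change of each cohesin gene in 4 comparisons, with bars of 1 standard error from the edgeR fit and filled symbols for adjusted p under 0.05. Black circles use the counts as deposited and orange squares the GC and length correction; Smc1a is at -1.33 and Stag2 at 1.18 for SMC1 against GFP, and with the correction no orange symbol is filled in the CAPH2 and SMC2 panels.

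The SMC1 library was also compared with the 4 condensin libraries, which needs no GFP library and is the difference between the SMC1 and the condensin changes. Stag1 and Stag2 were both 0.61 higher with SMC1 on the log2 scale, or 1.53-fold (SE 0.07 each, edgeR adjusted p = 0.000223 and 0.000192). Nipbl was 0.42 higher (SE 0.08, edgeR adjusted p = 0.00294) and Pds5b 0.34 higher (SE 0.07, edgeR adjusted p = 0.00466). Smc1a was lower by 1.65 (log2 change -1.65, SE 0.09, edgeR adjusted p = 4.45e-06), and Wapl was lower as well (-0.28, SE 0.07, edgeR adjusted p = 0.0123). Smc3 (-0.16), Rad21 (-0.04), Mau2 (-0.08) and Pds5a (-0.11) did not pass (edgeR adjusted p from 0.0955 to 0.683). These 4 higher and 2 lower members stand beside 23.7% and 19.5% of all tested genes (43.2% in all). The member median was -0.06, beside 0.01 for all genes. In SMC1 the RPKM was above all 4 condensin libraries for 4 members and below all 4 for 5 members, and the shares over all genes were 40.5% and 38.1%.

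The changes against GFP were graded by transcript length and GC content over all genes, and most cohesin genes lie toward the long end of the first and the low end of the second. With SMC1, the median log2 change ran from -0.32 in the decile of tested genes with the shortest counted exons to 0.45 in the decile with the longest, which holds Stag1 (6010 bases), Stag2 (5815), Pds5b (7309) and Nipbl (8815). These are also the 4 members that were highest with SMC1, as were 37.6% of all tested genes. Their log2 changes of 0.92 to 1.18 lie above that median. Mau2, with 5365 bases, is in the next decile, where the median was 0.25, and its own value was -0.17.

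For GC content, the median log2 change with CAPH2 ran from 0.26 in the decile with the lowest GC to -0.19 in the highest. With SMC2 it ran from 0.24 to -0.20, and with SMC1 from 0.30 to -0.21. The lowest decile holds Smc3, Stag1, Stag2 and Pds5b, and the next holds Rad21, Nipbl, Wapl and Pds5a. Mau2, the member with the highest GC content (51.9%), was the only member below GFP in all 4 condensin libraries. Across 13269 genes, Spearman's rho between GC content and log2 change was -0.47 for CAPH2, -0.48 for SMC2 and -0.27 for SMC1 against GFP, and -0.08 for SMC1 against the condensin libraries. Against GFP, rho between exon length and log2 change across 13813 genes was 0.33 for SMC1, 0.25 for CAPH2 and 0.33 for SMC2. For SMC1 against the condensin libraries it was 0.27. In that comparison the median ran from -0.21 in the decile with the shortest exons to 0.26 in the longest. The longest decile holds Stag1, Stag2, Nipbl and Pds5b, the members higher in that comparison. These genes share libraries and are not replicates.

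**Figure D3:**
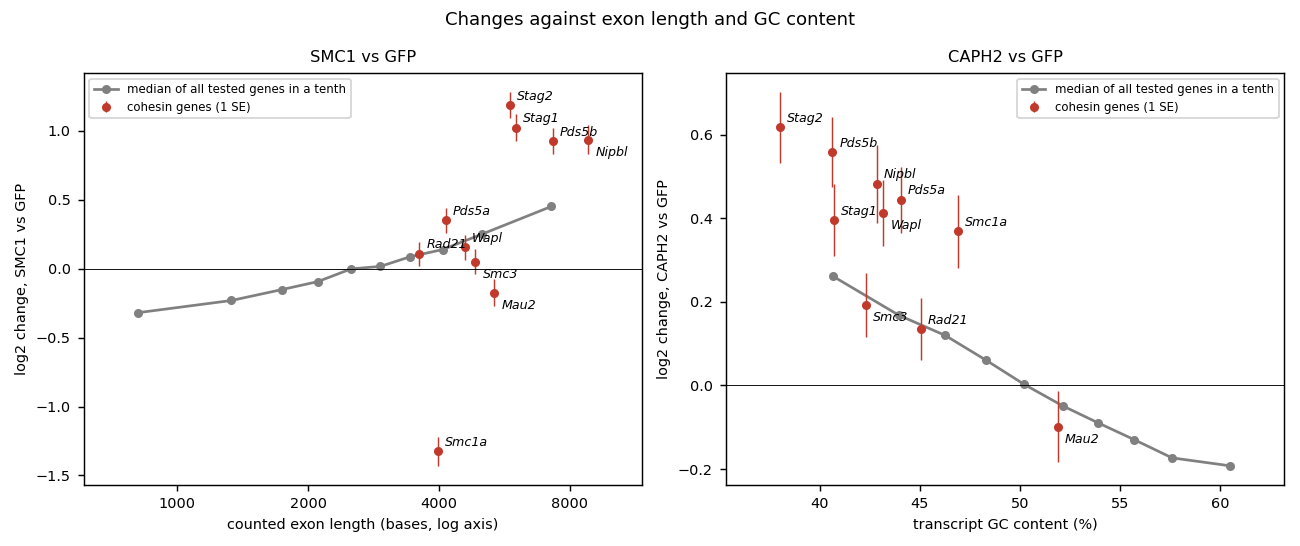
Log2 changes of the cohesin genes (red, 1 standard error) against counted exon length for SMC1 against GFP (left, log axis) and against transcript GC content for CAPH2 against GFP (right). Grey points are medians of all tested genes in each decile, which run from -0.32 to 0.45 along length and from 0.26 to -0.19 along GC content; Stag1, Stag2, Nipbl, Pds5a and Pds5b lie above the length line, Rad21 close to it, and Smc1a, Smc3, Mau2 and Wapl below it.

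A correction of each library for GC content and exon length, chosen after seeing the data, was run as an alternative. With it, 0 members passed for CAPH2 against GFP and 0 for SMC2 against GFP. With CAPH2, 0% of all genes were higher and 0% lower, so the knockdown target Ncaph2 did not pass either. With SMC2, 0.0377% of all genes were higher and 0.0226% lower. Among the members, the largest corrected log2 values were 0.26 for Smc1a and Pds5a with CAPH2 and 0.29 for Pds5a with SMC2 (edgeR adjusted p = 0.135, 0.105 and 0.104). For SMC1 against GFP, 4 members remained higher (21.9% of all genes): Stag2 by 0.64, Stag1 by 0.51, Pds5b by 0.34 and Nipbl by 0.32 on the log2 scale (edgeR adjusted p = 0.000558, 0.00262, 0.0123 and 0.0196). The call for Pds5a was lost (0.06, edgeR adjusted p = 0.582). Smc1a (-1.53), Smc3 (-0.34) and Mau2 (-0.37) were lower, beside 24.1% of all genes, so that Smc3 changed sign and passed (edgeR adjusted p = 2.87e-05, 0.00749 and 0.00830).

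In SMC1 against the condensin libraries, the corrected rises of Stag1 (0.43) and Stag2 (0.45) passed (edgeR adjusted p = 0.00157 and 0.000652), and those of Nipbl (0.13) and Pds5b (0.12) did not (edgeR adjusted p = 0.162 and 0.186). Lower after correction were Smc1a (-1.75), Wapl (-0.41), Smc3 (-0.30), Mau2 (-0.25) and Pds5a (-0.22). These counts of 2 higher and 5 lower stand beside 22% and 23.0% of all genes. Stag1 and Stag2 were the members higher with SMC1 than both GFP and the condensin libraries with and without the correction.

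Ratios of RPKM between 2 members of 1 library do not depend on how libraries are scaled. The ratio of Smc1a to Smc3 was 0.879 with GFP, 0.339 with SMC1, 0.985 and 1.00 with CAPH2, and 0.955 and 0.863 with SMC2. It was lowest with SMC1, where its 95% binomial interval (0.317 to 0.362) lay below those of all other libraries. Intervals of these ratios cover counting error only. Those of SMC2 R1 (0.916 to 0.995) and SMC2 R2 (0.826 to 0.902) did not overlap either. The ratio of Rad21 to Smc3 lay between 2.96 and 3.34 in all 6 libraries, and that of Stag1 to Stag2 between 0.899 and 1.07. Some of these intervals were apart as well. For Rad21 to Smc3, SMC1 (3.22 to 3.47) did not overlap CAPH2 R1 (2.86 to 3.05). For Stag1 to Stag2, GFP (1.00 to 1.15) did not overlap CAPH2 R1 (0.888 to 0.989) or CAPH2 R2 (0.846 to 0.955). The 2 STAG transcripts kept ratios near 1 in all 6 libraries, while with SMC1 they were 2.03 and 2.27 times as high as with GFP.

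Other ratios moved. The ratio of Mau2 to Nipbl was 2.73 with GFP, 1.71 and 1.95 with CAPH2, 1.78 and 1.73 with SMC2, and 1.26 with SMC1, so the 2 loader transcripts came closer in level in all 5 knockdown libraries. Pds5a exceeded Pds5b 3.34 times with GFP, 3.00 to 3.10 times in the condensin libraries and 2.25 times with SMC1. The ratio of Wapl to Nipbl, a releaser to a loader, was 4.36 with GFP, 4.00 to 4.23 in the condensin libraries and 2.54 with SMC1. Its interval with SMC1 (2.42 to 2.67) did not overlap any other library, but covers counting error only. For Mau2 to Nipbl, the intervals of CAPH2 R1 (1.62 to 1.80) and CAPH2 R2 (1.84 to 2.07) did not overlap either. The genes in these pairs differ in length and GC content, and the part of these differences was not tested.

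**Figure D4:**
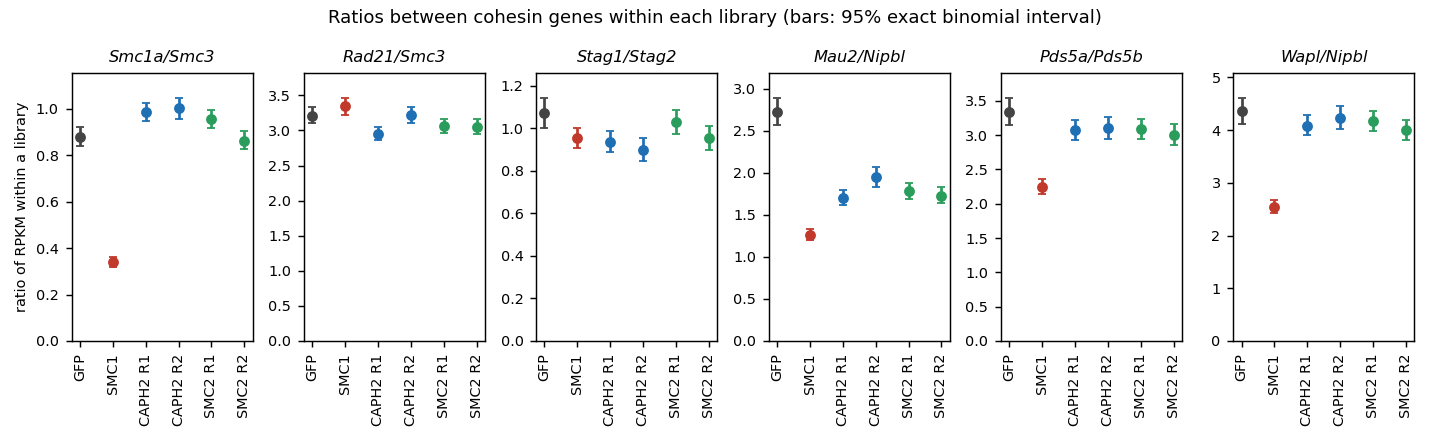
Ratio of RPKM between pairs of cohesin genes within each library (vertical axes start at 0), with 95% exact binomial intervals of the counts. The intervals cover counting error only. The SMC1 library (red) stands apart for Smc1a to Smc3 (0.339), Mau2 to Nipbl (1.26), Pds5a to Pds5b (2.25) and Wapl to Nipbl (2.54). Rad21 to Smc3 spans 2.96 to 3.34 and Stag1 to Stag2 0.899 to 1.07.

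The CAPH2 and SMC2 libraries were compared with each other, 2 hairpins against 2. In SMC2 against CAPH2, 0 of the 10 members passed, with log2 differences from -0.09 (Smc1a) to 0.07 (Nipbl) and standard errors of 0.06 to 0.07 (edgeR adjusted p = 0.995 for each). Only 1 of the 14599 genes passed, or 0.00685%, and it was Smc2 itself (log2 change -1.13, edgeR adjusted p = 0.000353). The other knockdown target, Ncaph2, did not pass despite a log2 difference of 1.53 (SE 0.18, edgeR adjusted p = 0.0740). An unadjusted p under 0.05 was found for 445 genes. DESeq2 called 5 genes and 0 members, and the fit with the GC and length correction 1 gene (0.00754%) and 0 members. A p-value that misses the threshold does not show that the levels are equal, and the fit had 2 residual degrees of freedom.

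Across the 6 libraries, the members fell into patterns that were described by the Pearson correlation of log2 RPKM, where 1 library can set the value. The nearest member to Stag1 was Stag2 (r = 0.975) and to Nipbl was Pds5b (0.979). Smc3 was nearest to Wapl (0.992) and Rad21 to Pds5a (0.931). The target Smc1a was nearest to Smc3 at only 0.625, and Mau2 to Smc1a at 0.479. Among 11233 genes with a mean of at least 100 counts, those nearest to Smc1a were Mcm10, a replication initiation factor (RPKM 71.1 with GFP, 53.8 with SMC1 and 74.9 to 77.7 in the condensin libraries), Fignl1 and Rtel1 (r = 0.999 each). Nearest to Stag1 were Mbnl1, an RNA splicing factor (3.03 with GFP, 7.08 with SMC1 and 4.19 to 4.52 in the condensin libraries), Mbnl3 and Mef2a, and nearest to Nipbl were Traf3ip1, Herpud1 and Strn3, all with r of at least 0.997.

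Of 13 genes that act on cohesin through the cell cycle, 1 was higher and 5 lower than GFP with SMC1, beside 25.1% and 22.5% of all tested genes, so that the share called was near that of all genes (47.6%). Their median log2 change was -0.24, beside 0.02 for all genes. Pttg1, which encodes securin, the inhibitor of the protease that cuts RAD21, had an RPKM of 56.9 with GFP, 22.9 with SMC1 and 44.2 to 46.5 in the condensin libraries (log2 change with SMC1 -1.31, edgeR adjusted p = 3.39e-05). Of the acetyltransferases that lock the ring onto DNA, Esco1 rose by 0.74 and Esco2 fell by 0.76 on the log2 scale with SMC1 (edgeR adjusted p = 0.00148 and 0.000356). With the GC and length correction the call for Esco1 was lost, and 0 of the 13 were higher and 6 lower. Sgo2a, a shugoshin that protects cohesin, fell by 0.48 (edgeR adjusted p = 0.00531). With CAPH2 and with SMC2, Esco1 was the only gene of the 13 to pass, with log2 rises of 0.61 and 0.60 (edgeR adjusted p = 0.0260 and 0.0247), and with the correction these calls were lost too.

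Of the 4 meiotic cohesin subunits, 3 could be tested, and these fell with SMC1, where 22.5% of all tested genes were lower. With the GC and length correction 2 of the 3 were lower, and the call for Rec8 was lost. Stag3 went from an RPKM of 22.3 with GFP to 7.87 with SMC1 and 13.1 to 15.6 in the condensin libraries (log2 change with SMC1 -1.50, edgeR adjusted p = 7.26e-05). Smc1b, the germline paralog of Smc1a, went from 2.91 to 0.476 (log2 change -2.61, edgeR adjusted p = 0.000178), and Rec8 from 8.18 to 5.59 (-0.55, edgeR adjusted p = 0.0295). Rad21l was at most 0.252 and was not tested. Stag3 moved opposite to its somatic paralogs Stag1 and Stag2 in the SMC1 library, and it was also the 1 meiotic gene lower with CAPH2 and with SMC2 (log2 change -0.64 in each, edgeR adjusted p = 0.0251 and 0.0226), calls that were lost with the correction.

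Of the 8 condensin subunits, 3 rose with SMC1 and 0 fell, a smaller share than the 47.6% of all tested genes called in this comparison (25.1% higher, 22.5% lower). Smc2 rose by 0.65, Ncapg2 by 0.67 and Smc4 by 0.32 on the log2 scale (edgeR adjusted p = 0.000487, 0.000856 and 0.0135), and Ncapd2 had -0.25 (0.0603). With the correction for GC content and length, 0 were higher and 2 lower with SMC1. With CAPH2, 4 of the 8 were higher than GFP, and 1, the target Ncaph2, was lower, beside 4.22% and 3.10% of all genes. With SMC2, 2 were higher and 1, the target Smc2, was lower, beside 3.68% and 2.86%. After correction 0 were higher with CAPH2 or SMC2. With CAPH2 0 were lower, so the call for the target Ncaph2 was lost as well, and with SMC2 1 was lower. Of 7 SMC5/6 subunits, 3 rose and 2 fell with SMC1, against the same shares of all genes: Smc6 (log2 change 0.49) and Smc5 (0.38) were higher, Nsmce4a (-0.58) and Nsmce1 (-0.70) lower, with edgeR adjusted p from 0.00293 to 0.0135. With the correction, 0 of the 6 with a GC value were higher and 2 lower with SMC1. Smc6 was the only 1 of the 7 to pass with CAPH2 and with SMC2 (log2 rises of 0.39 and 0.35, edgeR adjusted p = 0.0322 and 0.0464). Those 2 calls were lost with the correction. Of 10 proliferation genes, 2 rose with SMC1, Mki67 by 0.39 and Top2a by 0.35, and 5 fell, among them Ccne1 by 0.50 and Mcm5 by 0.39 on the log2 scale (edgeR adjusted p from 0.00361 to 0.00838), again beside 25.1% and 22.5% of all genes. With the correction, 1 was higher and 5 lower, and the higher gene was neither Mki67 nor Top2a, whose calls were lost. Top2a also rose with CAPH2 (0.35, edgeR adjusted p = 0.0304) and had a log2 change of 0.27 with SMC2 that did not pass (edgeR adjusted p = 0.0593).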

How the data were processed

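RNA-seq was measured in 6 libraries of V6.5 ESCs. According to the study's methods, the authors mapped the reads to mm9 using Bowtie, kept reads with at most 2 places (-m 2), and ran the program RPKM_count 2.3.5 on RefSeq transcripts. The authors deposited raw exonic counts per row, in which an exon shared by isoforms counts for each, and RPKM values, which divide the count by exon length and by the library's own read total. Strand use is not given in the sources used here, so reads from overlapping genes on opposite strands cannot be told apart. There were 26073 RefSeq and 92 ERCC rows per file. Gene names came from the RefSeq accession for 25349 rows and from overlap for 702, and 22 rows had none and were kept under their accession. Starts are given 1-based.

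Deposited counts of 1 row per gene were tested with edgeR 4.0.16 (quasi-likelihood test, R 4.3.3) over 4 groups, with the read totals behind the RPKM as library sizes, a minimum of 10 counts in 2 libraries, and Benjamini-Hochberg adjustment, called under 0.05. The common biological coefficient of variation was 0.0683. The step was also run on counts simulated with the fit's own spread in every library. Such counts cannot test whether the single GFP and SMC1 libraries vary like the hairpin pairs. Alternatives were TMM, DESeq2 size factors and ERCC counts as scaling, no filter, all transcript rows, the DESeq2 1.42.0 Wald test, leaving out each hairpin, a replicate block, only the 4 condensin libraries and, added after seeing the data, the GC and length correction (loess, span 0.3, for the 13269 genes, 90.9%, with both values), alone and with the block. Figures and summaries used Python 3.11.15, pandas 2.3.3 and matplotlib 3.10.9, and intervals scipy 1.17.1.

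The members, gene lists and tests were chosen with earlier results of these data known. Named besides the members were up to 4 genes per list with the lowest p for SMC1 against GFP, any list gene called in SMC2 against CAPH2, the 3 genes nearest in pattern to Smc1a, Stag1 and Nipbl, and Ncaph2 as a knockdown target. The ChIP-seq data of the study and protein sequences were not used here.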

Additional observations from a re-analysis of the deposited data

Results flagged for a closer look

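For 6 of the 10 cohesin genes the change with SMC1 differed from the change with the condensin hairpins, tested as 1 contrast in the edgeR fit in which the GFP library drops out. The log2 differences were -1.65 for Smc1a, 0.61 for Stag1, 0.61 for Stag2, 0.42 for Nipbl, 0.34 for Pds5b and -0.28 for Wapl (edgeR adjusted p from 4.45e-06 to 0.0123), beside 43.2% of all tested genes that differed. The SMC1 side of this contrast is 1 library. With the GC and length correction, Nipbl and Pds5b no longer passed. No group held 4 or more libraries, so no single library could be tested as an outlier within its group.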

How the results depend on the processing

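Of the values of single members under the alternatives, 500 kept their direction and their side of the threshold, 51 lost and 6 gained a call with the same direction, and 23 changed sign, of which some also gained or lost a call. Scaling by TMM or DESeq2 size factors shifted single libraries against GFP by at most 0.014 on the log2 scale. With ERCC scaling the genes called went from 6952 to 1872 for SMC1 against GFP (1765 higher, 107 lower), from 1068 to 4 for CAPH2, from 955 to 0 for SMC2 and from 6302 to 1401 for SMC1 against the condensin libraries, and were 4 for SMC2 against CAPH2. Members called were then 2, 0, 0 and 0 in the first 4 of these, and Smc1a left in the SMC1 library moved from 39.9 to 72.7%. Changes of sign with ERCC scaling that passed in neither fit were Mau2 at 0.69, 0.22, 0.52 and 0.32 in the same order, Smc3 at 0.23, Rad21 at 0.36 and Pds5a at 0.29 for SMC1 against the condensin libraries, and Smc1a at 0.18 and Stag2 at 0.18 for SMC2 against CAPH2. Wapl, called at -0.28 for SMC1 against the condensin libraries, was at 0.11 and lost its call. The cause was not tested.

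With the GC and length correction the genes called were 0 for CAPH2 and 8 for SMC2 against GFP, with 0 members in each. Smc3 was then at -0.34 (now passing), -0.055 and -0.023 for SMC1, CAPH2 and SMC2 against GFP, Rad21 at -0.11 for SMC1 and -0.014 for CAPH2, Wapl at -0.19 for SMC1, and Mau2 at -0.0071 for SMC2 against CAPH2. Without the filter, 2062 genes were called for CAPH2 and 1778 for SMC2 against GFP, and 4 for SMC2 against CAPH2, where TMM gave 2 and DESeq2 gave 5.

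Leaving out 1 hairpin gave 501 to 3222 genes for CAPH2 against GFP, lowest without SMC2 R2 and highest without CAPH2 R2. For SMC2 against GFP it gave 3 to 2733 genes and 0 to 7 members. For SMC2 against CAPH2 it gave 1 to 235 genes, lowest without SMC2 R2 and highest without CAPH2 R2. There, uncalled changes of sign were Rad21 (-0.016 to 0.059), Mau2 (-0.028 to 0.062) and Stag1 (-0.0095 to 0.053).

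The hairpin numbers of CAPH2 and SMC2 mark different hairpins, and same-numbered libraries deviated together with a correlation of only 0.0769, so the pairing was not used. The replicate block gave 5 genes and 0 members for SMC2 against CAPH2, and the replicate block with GC and length correction gave 2 genes, with Mau2 at -0.0067. With single GFP and SMC1 libraries, no spread between control cultures was measured.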
